A study of Mus musculus with 24 samples.

Results

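Hearts of C57BL/6J mice, 8 weeks old, were compared 24 h after middle cerebral artery occlusion (MCAO), which blocks an artery of the brain and causes an ischemic stroke, with hearts taken 24 h after a sham operation. The comparison rests on 12 of the series' 24 arrays, chosen by their titles: 6 arrays of MCAO and 6 of sham hearts at 24 h. The other 12 arrays are the same operations at 72 h and are used only to show where the 24 h hearts differ. Their titles, sources and time tags give the later time, whereas their descriptions name 24 h for all 12; the titles were followed, and every 72 h value below rests on that. All mice were wild type, all had an operation, and the sham mice were age matched. Whether the arrays come from different animals is not stated in the labels. The p-values below therefore reflect the scatter among arrays, which may be technical.

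A stroke in the brain reaches the heart through nerves and hormones. Adrenal glucocorticoids enter cells, bind a nuclear receptor and switch on target genes, while sympathetic nerves release noradrenaline, which raises cyclic AMP in heart muscle cells. Both routes change the fuels the heart burns, and the heart takes most of its energy from fatty acids.

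Values are log2 expression of 24011 named genes, and a difference of 1 is 2-fold. For each gene the lowest, median and highest of the 6 arrays of a group are given. A gene was called when limma's p-value, adjusted over all 24011 genes by the Benjamini-Hochberg method, was under 0.05, and "rose" and "fell" refer to called genes only. The tissue matched its label: 12 of 12 ventricular muscle markers were measured, and their mean log2 level lay between 12.3 and 12.7 in the 12 arrays. In whole hearts, fewer cells of a type and less RNA per cell cannot be told apart.

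MCAO 5 and MCAO 6 stood apart from the other MCAO hearts. In MCAO 5, 183 genes lay more than 1 log2 unit below all 5 other arrays of the group, and in MCAO 6 there were 286, against 1 to 11 in the other 4. Their mean correlations with their own group across genes, 0.968 and 0.963, were the lowest, and the sham arrays lay between 0.983 and 0.992. The spread between arrays was also larger in MCAO hearts, with a median SD over genes of 0.218 against 0.130 in sham hearts. A second measure moved with the groups. The first principal component of 1348 olfactory and vomeronasal receptor genes, which are hardly transcribed in heart, ran from -0.085 to 0.644 in MCAO arrays and from -0.381 to -0.160 in sham arrays. The groups do not overlap on it, so this component and the operation cannot be told apart.

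Expression differed between MCAO and sham hearts at 24 h for 2194 genes, 9.14% of those tested. Of these, 1146 rose (4.77%) and 1048 fell (4.36%), and 111 and 69 of them, respectively, changed at least 2-fold. For 691 genes (2.88%) every MCAO array lay above every sham array, and for 636 (2.65%) every MCAO array lay below. Without MCAO 5 and 6 the count was 3233 (13.5%), and 1778 of the 2194 were among them. With the receptor component as a covariate, 79 genes were called (0.329%), 55 of them from the 2194. The log2 changes of 2169 of the 2194 kept their sign in that fit, and their median SE went from 0.115 to 0.178. Among the genes named below, Nr4a1, Atf3, Arrdc2, Map3k6, Fkbp5, Slc10a6, Fam107a, Per2, Irs2, Bnip3, Pnpla2, Adh1, Dpep1, Mir27a, Itgb6, Aplnr, Tuba4a, Lmod3 and Gja1 were called in that fit too. Centred on ribosomal protein genes, the split was 1507 risen and 424 fallen genes, so that 78.0% of called genes rose, against 52.2% in the deposited scaling. The count depended on single arrays: it was 1250 without sham 4, 1437 without sham 2 and between 1469 and 2913 without any other single array. Each gene called here kept its call whichever of the 12 arrays was left out, unless the text says otherwise.

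Fkbp5, which encodes a co-chaperone that restrains the glucocorticoid receptor, rose most of all genes. Its log2 values were 4.41, 5.16 and 6.24 in sham hearts and 7.67, 8.56 and 9.33 in MCAO hearts, a log2 change of 3.27 (SE 0.30, adjusted p = 7.89e-05). The lowest MCAO array lay more than 1 log2 unit above the highest sham array. Nr4a1, an orphan nuclear receptor made within minutes of many stimuli, went from 6.26, 6.71 and 6.93 to 8.67, 9.02 and 9.44, a log2 change of 2.38 (SE 0.15, adjusted p = 1.24e-05). The 2 groups did not overlap for it either. Spock2, a secreted proteoglycan gene, rose by 1.72 on the log2 scale, and Adh1, an alcohol dehydrogenase that also oxidizes retinol, by 1.70. Car4, a membrane carbonic anhydrase, rose by 1.84, and Timp4, an inhibitor of matrix metalloproteinases that is abundant in heart, by 1.65. Hamp, the gene of the iron hormone hepcidin, showed a log2 change of 2.27 (SE 0.65, adjusted p = 0.045). Its arrays were widely spread, from 3.97 to 8.32 in MCAO hearts, and its call was lost without any 1 of 10 arrays (adjusted p up to 0.0932).

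Itgb6, the beta subunit of an integrin that activates latent TGF-beta, fell most among genes with separate groups. Sham hearts read 7.09, 7.33 and 8.06 and MCAO hearts 4.76, 5.35 and 5.62, so that it fell by 2.21 on the log2 scale (SE 0.19, adjusted p = 6.16e-05). Aplnr, the receptor of the peptide apelin, which dilates vessels and strengthens contraction, went from 6.12, 6.36 and 6.92 to 4.07, 4.36 and 4.98 and fell by 2.01 (SE 0.16, adjusted p = 4.74e-05). For both genes all 6 MCAO arrays lay more than 1 log2 unit below the lowest sham array. Ppp1r14c, a phosphatase inhibitor gene, fell by 1.48, Fbxl22, an F-box protein of the sarcomere, fell by 1.34, and Lcp1, an actin-bundling protein of white blood cells, fell by 1.29. Rap1gap2, which switches off the small GTPase Rap1, went from 7.24, 7.41 and 8.17 to 6.05, 6.21 and 6.53 and fell by 1.25 (SE 0.14, adjusted p = 0.000319). Sft2d1 fell by 2.21 and Lce1j by 1.90, but their groups overlapped. Sft2d1 missed the threshold without MCAO 4 (adjusted p = 0.0515) or sham 4 (0.0509), and Lce1j without MCAO 4 (0.0521).

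**Figure D1:**
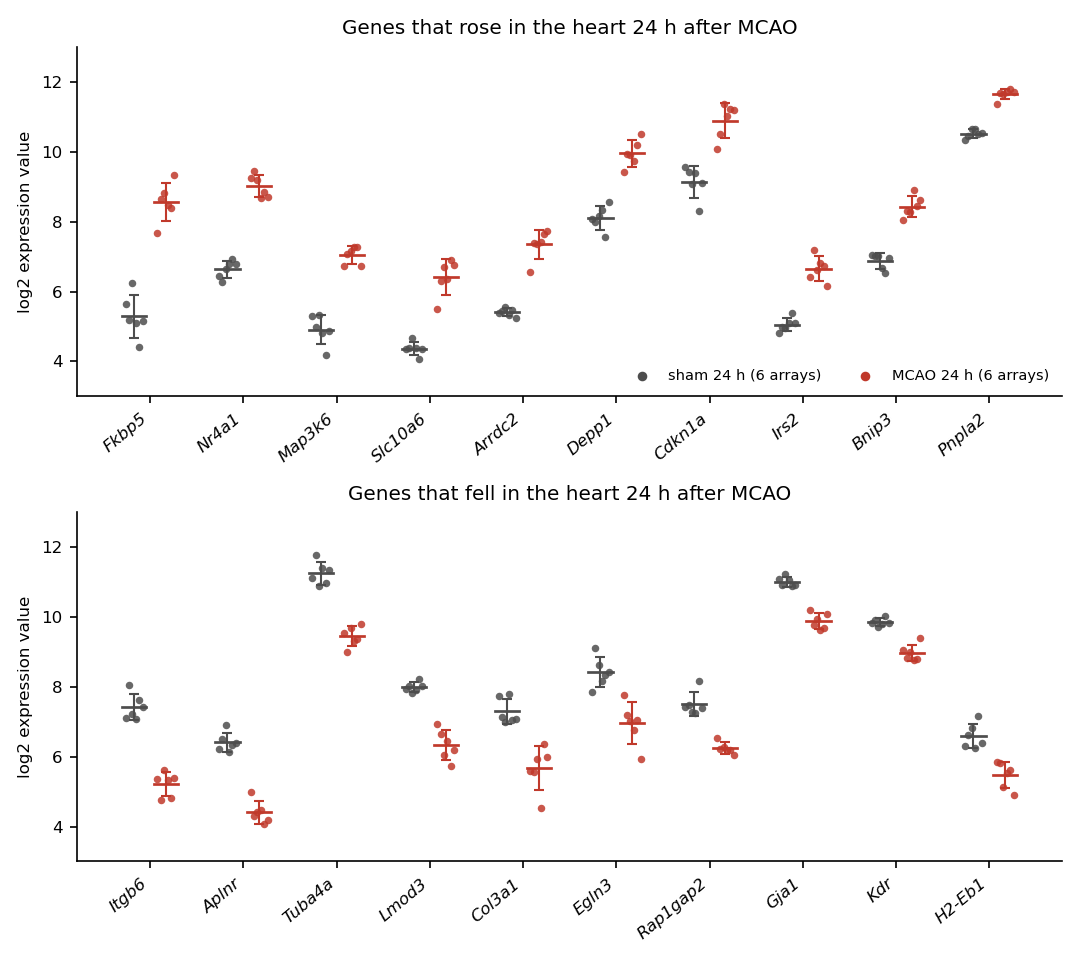
Log2 expression of 10 genes that rose (top) and 10 that fell (bottom) in the heart 24 h after MCAO. Each point is 1 array (6 sham in grey, 6 MCAO in red), the long line is the group mean and the bars are 1 SD; Fkbp5 spans 4.41 to 6.24 in sham and 7.67 to 9.33 in MCAO hearts, and for all 20 genes the groups do not overlap.

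Gene lists were then read by the number of measured members called, beside the 9.14% of all genes and the median log2 change of 0.0082 over all genes. The lists that stood highest among those drawn in the plot of gene lists were the glucocorticoid-induced genes, the FoxO and atrophy genes and the lipid droplet genes. Lists and members were chosen with earlier results of these data known, so the shares and their order describe the lists and do not test them.

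**Figure D2:**
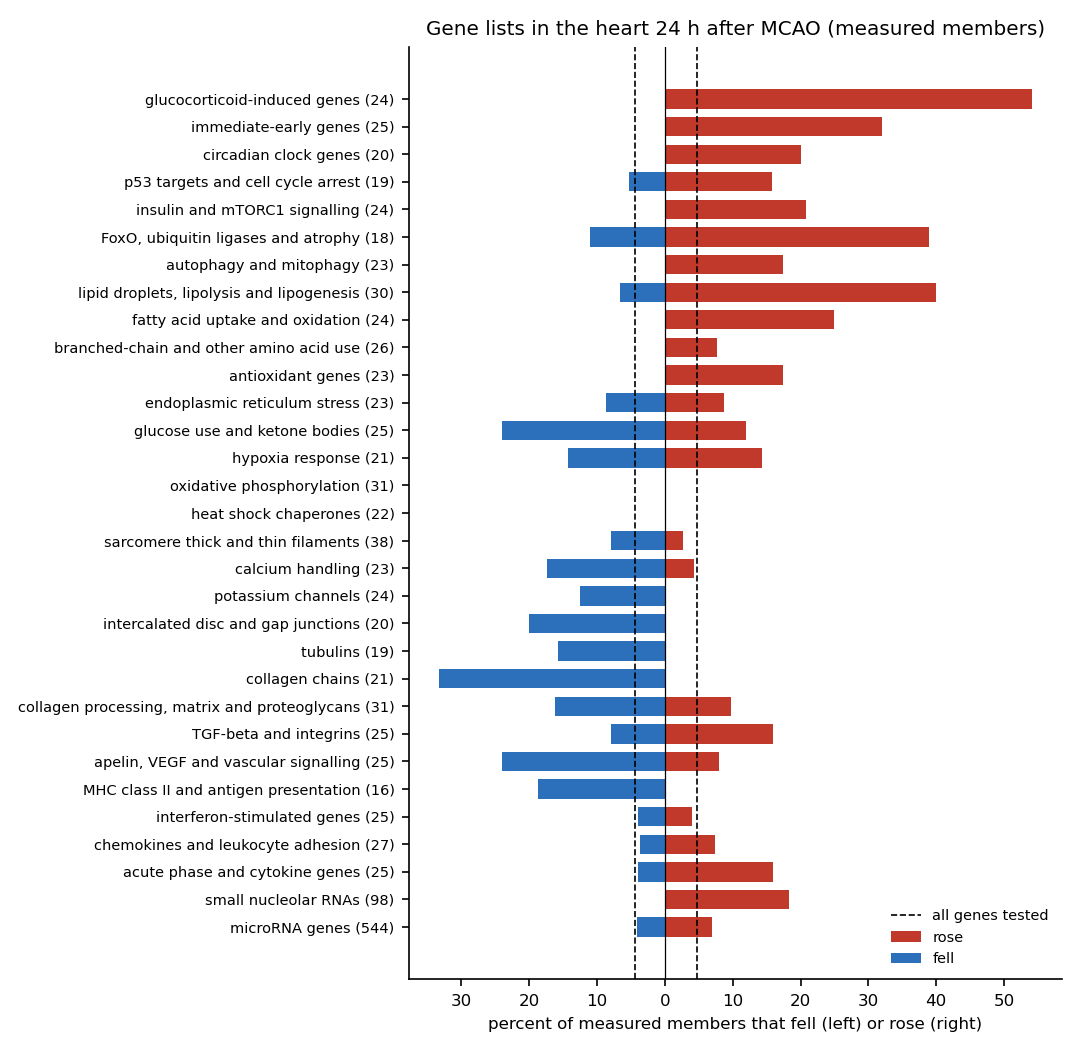
Share of the measured members of 31 gene lists that rose (red, to the right) or fell (blue, to the left) 24 h after MCAO, in percent, with the number of measured members in brackets. The dashed lines mark the shares over all genes tested, 4.77% risen and 4.36% fallen; glucocorticoid-induced genes and collagen chains reach farthest to the right and to the left.

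Of 24 listed genes that glucocorticoids switch on, 13 rose, the other 11 did not pass, and the median log2 change of the list was 0.94. The count was 17 without MCAO 5 and 6, 12 to 17 with any single array left out, and 5 with the receptor component. Arrdc2, Slc10a6, Map3k6 and Fam107a were placed on the list with earlier results of these data known, and without them 9 of 20 rose, with a median of 0.68. Arrdc2, an arrestin-domain gene, went from 5.24, 5.42 and 5.56 to 6.55, 7.41 and 7.73, a log2 change of 1.94 (SE 0.16, adjusted p = 6.1e-05). The kinase gene Map3k6 went from 4.19, 4.92 and 5.33 to 6.72, 7.12 and 7.28, a change of 2.13 (SE 0.18, adjusted p = 6.16e-05). MCAO arrays of both genes lay above all sham arrays. Slc10a6, a steroid sulfate transporter gene, rose by 2.06 and Fam107a, an actin-binding stress gene, by 1.45. Ddit4, which holds back the growth kinase complex mTORC1, rose by 1.71. Klf15, a transcription factor that directs fuel use in muscle, rose by 1.17, its relative Klf9 by 0.68 and Sgk1, a kinase that regulates ion channels, by 0.68. The metallothionein genes Mt2 and Mt1, whose proteins bind zinc and copper, rose by 1.36 and 0.66.

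Some classical targets did not pass. Tsc22d3, which encodes the anti-inflammatory protein GILZ, changed by 0.31 (adjusted p = 0.124), and the phosphatase gene Dusp1 by 0.03 (adjusted p = 0.917). Zbtb16 showed a change of 1.16 (adjusted p = 0.0661) and Lcn2 of 1.46 (adjusted p = 0.0585). Nr3c1, the gene of the glucocorticoid receptor itself, went from 7.93, 8.04 and 8.34 to 7.23, 7.50 and 7.94 and fell by 0.53 (SE 0.12, adjusted p = 0.0153). Only the top of the MCAO range touched the bottom of the sham range. The mineralocorticoid receptor gene Nr3c2 showed a log2 change of 0.01.

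Immediate-early genes, which answer cell signals without new protein synthesis, numbered 25. Of these 8 rose and the other 17 did not pass, and the list median was 0.18. The count was 8 or 9 with any single array left out, and without MCAO 5 and 6 there were 9 risen genes and 1 fallen. Nr4a1 (above), Nr4a3 and Atf3 changed most. Atf3, a stress-induced transcription factor, went from 5.21, 5.40 and 5.63 to 6.17, 6.47 and 6.79 (change 1.03, SE 0.11, adjusted p = 0.000198). Nr4a3, a close relative of Nr4a1, went from 3.93, 4.10 and 4.50 to 4.67, 5.22 and 6.10, a change of 1.20 (SE 0.23, adjusted p = 0.00793). In these 3 genes every MCAO array lay above every sham array. Zfp36, which marks cytokine messages for decay, rose by 1.01, the antiproliferative gene Btg2 by 0.93 and Dusp5, a phosphatase of ERK kinases, by 0.77. Fosl2, an AP-1 subunit, rose by 0.69 and Ier2 by 0.64. The best-known members gave no call: Fos changed by -0.28, Jun by -0.40, Egr1 by 0.06 and Myc by 0.13, with adjusted p between 0.234 and 0.813.

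The upstream sequences of Nr4a1 and Nr4a3 are shown because these 2 receptors rose together and share a feature. RefSeq (GRCm38.p6) held promoters of 7 of the 8 risen immediate-early genes. The letters TGACG, the core to which cyclic AMP-responsive factors bind, were searched on both strands of the 250 bases before the start, so that CGTCA also counts, and matches are in capitals. They occur in 5 of the 7, in 6 of the 13 risen glucocorticoid-induced genes, in 3 of the 3 risen clock genes with an entry, and in 19.8% of the 27025 genes with a promoter. Nr4a1 and Nr4a3 hold 4 matches each, which 44 genes (0.163%) equal or exceed. These 2 genes were chosen for their rise and this shared feature, so the 0.163% describes them and tests no cause. A part of cyclic AMP in their rise was not tested. The longer palindrome TGACGTCA, which contains TGACG on both strands, occurs in 1 of the 7 and in 1.77% of all. The regions are chr15:101266596-101266845 for Nr4a1 and chr4:48045055-48045304 for Nr4a3, both on the plus strand.
Nr4a1: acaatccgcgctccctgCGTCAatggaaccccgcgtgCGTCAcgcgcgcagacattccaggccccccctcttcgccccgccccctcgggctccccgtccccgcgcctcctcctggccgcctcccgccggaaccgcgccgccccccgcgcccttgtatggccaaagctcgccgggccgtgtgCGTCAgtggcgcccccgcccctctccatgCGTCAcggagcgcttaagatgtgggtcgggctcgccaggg
Nr4a3: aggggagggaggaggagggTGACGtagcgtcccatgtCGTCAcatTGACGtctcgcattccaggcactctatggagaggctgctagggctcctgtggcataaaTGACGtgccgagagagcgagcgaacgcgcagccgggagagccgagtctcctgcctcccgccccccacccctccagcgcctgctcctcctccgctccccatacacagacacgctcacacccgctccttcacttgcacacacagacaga
A match describes the letters in this window and not a bound site. The letters AGAACA, one arm of a glucocorticoid response element, occurred in 3 of the 13 risen glucocorticoid-induced genes and in 18.2% of all promoters.

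The circadian clock is a loop in which the activators CLOCK, NPAS2 and BMAL1 (gene Arntl) switch on Period and Cryptochrome genes, whose proteins repress them. Of 20 listed genes, the 4 repressors Per1, Per2, Cry1 and Cry2 rose and the other 16 did not pass, 4 or 5 rose with any single array left out, and without MCAO 5 and 6 there were 5 risen and 1 fallen. Per1 went from 6.63, 7.62 and 8.49 to 8.92, 9.07 and 9.41, a log2 change of 1.59 (SE 0.24, adjusted p = 0.00224). Per2 went from 4.59, 4.74 and 5.28 to 5.75, 5.99 and 6.48, a change of 1.21 (SE 0.16, adjusted p = 0.000901). Cry2 rose by 1.09 and Cry1 by 0.57, and in all 4 genes the MCAO arrays lay above the sham arrays. The other repressors Per3 (0.54, adjusted p = 0.0741) and Ciart (0.67, adjusted p = 0.0799) did not pass, nor did the activators Arntl (-0.61, adjusted p = 0.109), Npas2 (-0.51, adjusted p = 0.102) and Clock (0.13, adjusted p = 0.433). Nr1d1 and Nr1d2, which encode the REV-ERB repressors, showed changes of 0.03 and 0.12. The clock output genes Dbp, Tef and Hlf showed 0.29, -0.19 and -0.03. The labels do not give the hour of tissue collection.

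The upstream bases of Per1 and Cry1 are shown for their E-box, the letters CACGTG to which CLOCK and BMAL1 bind. CACGTG reads the same on both strands and is in capitals. It occurs in 6.86% of all promoters and in 2 of the 3 risen clock genes with an entry, namely in 1 of 2 start sites of Per1 (chr11:69098699-69098948, plus strand) and in Cry1 (chr10:85185055-85185304, minus strand).
Per1: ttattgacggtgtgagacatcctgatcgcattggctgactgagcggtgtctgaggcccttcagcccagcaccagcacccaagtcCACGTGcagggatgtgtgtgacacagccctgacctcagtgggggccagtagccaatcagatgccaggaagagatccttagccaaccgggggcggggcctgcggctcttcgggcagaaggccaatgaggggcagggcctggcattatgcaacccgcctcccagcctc
Cry1: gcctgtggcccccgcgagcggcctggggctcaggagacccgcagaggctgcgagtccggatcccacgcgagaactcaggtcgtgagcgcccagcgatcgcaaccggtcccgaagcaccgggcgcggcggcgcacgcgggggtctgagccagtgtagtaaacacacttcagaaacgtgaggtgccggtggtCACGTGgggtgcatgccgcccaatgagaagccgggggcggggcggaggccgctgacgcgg
The same letters occur in 4 of the 13 risen glucocorticoid-induced genes, a list that shares Per1.

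**Figure D3:**
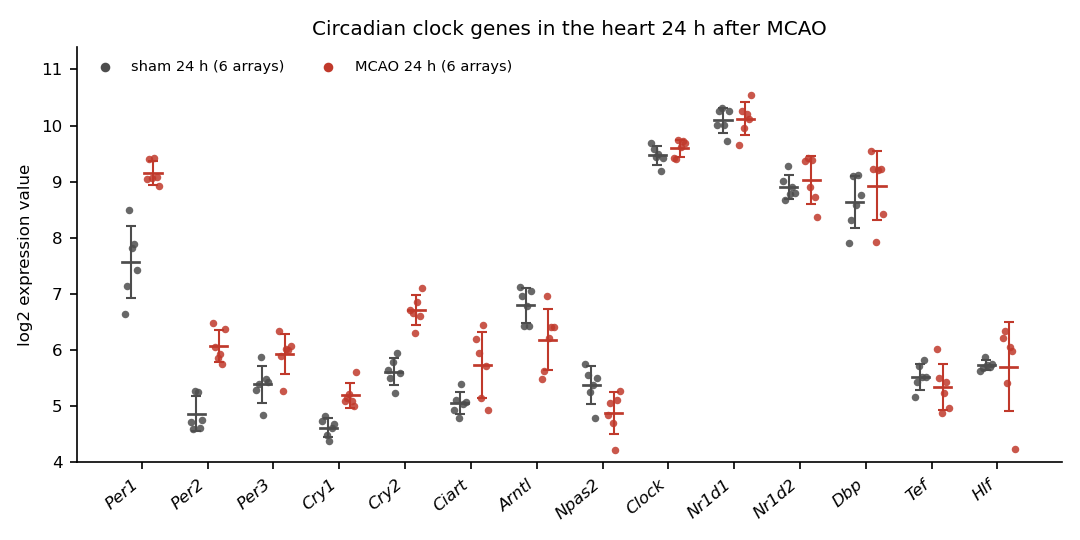
Log2 expression of 14 circadian clock genes in the 12 hearts at 24 h. Points are arrays (grey sham, red MCAO), long lines are means and bars are 1 SD with 6 arrays each; Per1, Per2, Cry1 and Cry2 separate the groups, whereas the points of the other 10 overlap.

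Of 30 genes of lipid droplets, lipolysis and lipid synthesis, 12 rose, 2 fell and 16 did not pass, with a median log2 change of 0.37. Without MCAO 5 and 6, 8 rose and 1 fell, and without sham 4 alone 7 rose. With the receptor component 1 rose and none fell. Without any single array other than MCAO 3 the falls were 0 or 1. Pnpla2, the lipase that takes the first fatty acid off stored fat, went from 10.33, 10.52 and 10.66 to 11.37, 11.70 and 11.81, a change of 1.14 (SE 0.09, adjusted p = 3.49e-05). Every MCAO heart lay above every sham heart. Dgat1, which makes triglyceride, rose by 0.74, the droplet coat genes Plin4 and Plin5 by 0.92 and 0.80, and Gpihbp1, which carries lipoprotein lipase to the vessel wall, by 0.92. The desaturase gene Scd4 rose by 2.04: its sham hearts ranged from 4.73 to 7.26, while the MCAO hearts lay close together between 7.85 and 8.20. Plin3 rose by 0.58 and missed the threshold without sham 4 (adjusted p = 0.0574). Abhd5, the activator of PNPLA2, fell by 0.62 and Scd2 by 0.50, calls that were lost without any 1 of 8 and of 9 arrays (adjusted p up to 0.0884 and 0.108). Lpl, the lipase itself, changed by 0.01, and Angptl4, its inhibitor, by 0.98 (adjusted p = 0.212).

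Of 24 genes of fatty acid uptake and oxidation, 6 rose and the other 18 did not pass, with a median of 0.19 and 5 to 7 risen with any single array left out. Slc27a1, a fatty acid transporter, went from 8.58, 8.94 and 9.27 to 9.58, 10.07 and 10.20, a change of 1.04 (SE 0.13, adjusted p = 0.000787). The thioesterases Acot1 and Acot2, which release free fatty acids from coenzyme A, rose by 1.70 and 0.60, and the uptake receptor Cd36 rose by 0.27. In these 4 genes the groups did not overlap. Cpt2, an enzyme of fatty acid entry into mitochondria, rose by 0.31, a call lost without sham 4 (adjusted p = 0.0531). Pdk4, the kinase that shuts pyruvate out of mitochondria, rose by 0.91 and lost its call without any 1 of 4 arrays, MCAO 3, MCAO 4, sham 2 or sham 6 (adjusted p up to 0.06). Of 14 adipocyte markers 6 rose, among them Pparg by 0.68, Cidec by 0.39, Cebpa by 0.37 and Thrsp by 0.48. Adipoq, the defining adipocyte gene, showed 0.09 (adjusted p = 0.547), but read only 3.18 to 3.62 in the 12 arrays. The median sham level of the olfactory and vomeronasal receptors was 3.21, so a change of Adipoq could hardly be seen. Relative to the sham mean the adipocyte list averaged -0.11 to 0.17 in sham arrays and 0.07 to 0.24 in MCAO arrays, and the part of fat tissue in the lipid results was not tested.

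Of 25 genes of glycolysis, pyruvate and ketone use, 6 fell, 3 rose and 16 did not pass. The falls numbered 3 without sham 1 and 10 without MCAO 6, the rises 1 without sham 2 or sham 6, and without MCAO 5 and 6 there were 9 falls and 4 rises. Both hexokinase genes of heart fell. Hk2 went from 9.18, 9.41 and 9.51 to 8.48, 8.77 and 8.96 (change -0.63, SE 0.10, adjusted p = 0.00308), and Hk1 from 8.40, 8.62 and 8.84 to 7.75, 8.01 and 8.25 (change -0.63, SE 0.10, adjusted p = 0.00296). All MCAO arrays lay below the sham arrays in both. Pfkl, a phosphofructokinase subunit, fell by 0.53. Pfkfb2, which makes the activator of that enzyme, fell by 0.93, a call lost without sham 1 (adjusted p = 0.0505), while its relative Pfkfb3 rose by 0.53. Oxct1, the enzyme through which heart burns ketone bodies, fell by 0.32 and lost its call without MCAO 3, sham 1, sham 3 or sham 6 (adjusted p up to 0.057). Of 31 subunits of oxidative phosphorylation limma called none, and 5 had an unadjusted p under 0.05.

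Of 24 insulin and growth signalling genes 5 rose, and 8 without MCAO 6. The 5 include Ddit4, already counted among the glucocorticoid-induced genes. Irs2, the adaptor that carries the insulin signal, went from 4.81, 5.04 and 5.38 to 6.17, 6.67 and 7.19, a change of 1.60 (SE 0.15, adjusted p = 9.07e-05). Its MCAO arrays lay above all sham arrays. Castor1, an arginine sensor that restrains mTORC1, rose by 0.94, and Pik3r1, the regulatory subunit of PI3 kinase, by 0.55.

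FoxO factors drive protein breakdown when insulin signalling is low. Of 18 genes of this programme 7 rose and 2 fell, 5 to 8 rose with any single array left out, and 4 fell without MCAO 5. The 7 include Klf15, already counted among the glucocorticoid-induced genes. Without MCAO 5 and 6 there were 5 rises and 4 falls, and with the receptor component limma called none. Depp1, a FoxO target, went from 7.55, 8.12 and 8.56 to 9.41, 9.92 and 10.52, a change of 1.84 (SE 0.19, adjusted p = 0.000144). The groups did not overlap. The ubiquitin ligase subunit Fbxo32 (atrogin-1) rose by 0.68, Fbxo31 by 0.87 and the lysosomal protease Ctsl by 0.71. Trim63 (MuRF1), the other classical atrophy ligase, changed by -0.19 (adjusted p = 0.322). Fbxo30 and Fbxo40 fell by 0.56 and 0.89.

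Autophagy genes rose in 4 of 23 cases, and in 4 or 5 with any single array left out. Bnip3, a mitochondrial receptor for autophagy, went from 6.53, 6.98 and 7.04 to 8.04, 8.37 and 8.89, a change of 1.56 (SE 0.14, adjusted p = 7.68e-05). Atg13, part of the complex that starts autophagosomes, rose by 1.05, Gabarapl1 by 0.74 and Wipi2 by 0.59. Among 19 p53 targets and cell cycle inhibitors 3 rose and 1 fell, and 4 rose and 4 fell without MCAO 5 and 6. The falls were 2 without MCAO 1 or MCAO 6. Cdkn1a, which encodes the inhibitor p21, went from 8.30, 9.24 and 9.56 to 10.07, 11.11 and 11.37, a change of 1.76 (SE 0.24, adjusted p = 0.00128). Trp53inp1 rose by 1.64, and both genes separated the groups. Cdkn1c rose by 0.47 and Gadd45a, a DNA damage gene, fell by 0.58, calls lost without any 1 of 8 and of 9 arrays (adjusted p up to 0.07 and 0.0793).

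Of 38 sarcomere genes 1 rose and 3 fell, and the median log2 change was -0.03. The rises were 3 without MCAO 6 and 2 without sham 2. Lmod3, which builds and caps thin filaments, went from 7.83, 7.98 and 8.23 to 5.73, 6.31 and 6.93 and fell by 1.67 (SE 0.17, adjusted p = 0.000139). Every MCAO heart lay below every sham heart. Nebl, a thin-filament anchor at the Z-disc, fell by 0.57 and Myom2, a bridge protein of the M-band, rose by 0.67. Myh6, the main heart myosin of the mouse, changed by -0.33 (adjusted p = 0.104) and the fetal myosin gene Myh7 by 0.25 (adjusted p = 0.748). Nppa and Nppb, the natriuretic peptide genes of stretched hearts, showed 0.29 and -0.43 and did not pass. Fhl2, a LIM protein of the sarcomere, fell by 0.63, the only call among 19 stretch and fetal-programme genes.

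Of 23 calcium genes 4 fell and 1 rose, with 2 falls without sham 2 or sham 4 and 2 rises without MCAO 1, MCAO 6 or sham 2. Casq2, which stores calcium in the sarcoplasmic reticulum, went from 11.32, 11.54 and 11.64 to 10.80, 10.99 and 11.16 and fell by 0.53 (SE 0.08, adjusted p = 0.00154). Asph, whose products include junctin, fell by 0.62, and the sodium-calcium exchanger gene Slc8a1 by 0.51, a call lost without sham 2 (adjusted p = 0.0519) or sham 4 (0.0551). Itpr2, an intracellular calcium release channel, rose by 0.38. The release channel gene Ryr2 (-0.18) and the pump gene Atp2a2 (-0.05) did not pass.

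Of 24 potassium channel genes 3 fell, and 1 without sham 1 or sham 2. Kcne1, the subunit that slows the channel of Kcnq1, went from 4.96, 5.33 and 6.01 to 4.11, 4.47 and 4.81 and fell by 0.92 (SE 0.17, adjusted p = 0.00626). Kcnq1 itself fell by 0.48 and lost its call without sham 1, sham 2 or sham 4 (adjusted p up to 0.0519). Of 20 intercalated disc genes 4 fell, and 2 without sham 1, 2, 3, 4 or 6, and without MCAO 5 and 6 there were 6 falls and 1 rise. Gja1, which encodes connexin 43, the main gap junction protein of ventricular muscle, went from 10.88, 10.98 and 11.23 to 9.64, 9.86 and 10.21. It fell by 1.12 on the log2 scale (SE 0.11, adjusted p = 0.000101), and no MCAO array reached the sham range. Gja3, another connexin gene, fell by 0.94. Tmem65, a disc protein bound to connexin 43, fell by 0.60 and the adhesion gene Cdh2 (N-cadherin) by 0.24, calls lost without any 1 of 6 and of 10 arrays (adjusted p up to 0.0644 and 0.102).

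Tubulins form microtubules. Of 19 tubulin genes 3 fell: 1 did so without MCAO 2, 3, 4 or 5 or without sham 1, 2, 5 or 6, and 5 without MCAO 6. The list median was -0.32, and 4 of the 19 lay above 0. Tuba4a went from 10.90, 11.23 and 11.78 to 9.01, 9.46 and 9.79 and fell by 1.80 (SE 0.16, adjusted p = 7.68e-05). The 2 groups were separated by more than 1 log2 unit. Tuba1a fell by 1.24, with overlapping groups, and lost its call without any 1 of 9 arrays (adjusted p up to 0.0879).

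Of 21 collagen chains 7 fell, the other 14 did not pass and the list median was -0.33. The count was 11 without MCAO 5 and 6, 3 without sham 1 or sham 4, and 4 without MCAO 2, 3, 4 or 6 or sham 2, 5 or 6. Col3a1, a fibrillar collagen of vessels and heart, went from 6.98, 7.10 and 7.80 to 4.53, 5.77 and 6.37 and fell by 1.63 (SE 0.26, adjusted p = 0.00296). All MCAO arrays lay below the sham arrays. Col14a1 fell by 0.95 and Col5a1 by 0.90. Col1a2 fell by 0.91 and lost its call without sham 1 (adjusted p = 0.0527) or sham 4 (0.0576), and Col1a1 fell by 0.83 and lost it without any 1 of 10 arrays (adjusted p up to 0.0784).

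Of 31 genes of collagen processing and other matrix, 5 fell and 3 rose, and the 5 falls held with any single array left out. Postn (periostin), a protein of activated fibroblasts, fell by 1.53, and Lum (lumican), a proteoglycan that spaces collagen fibrils, by 1.31. Serpinh1, the collagen chaperone, went from 6.61, 7.02 and 7.71 to 5.41, 6.04 and 6.45 and fell by 1.13 (SE 0.21, adjusted p = 0.0057). Loxl2, a collagen cross-linking enzyme, fell by 0.88 and Ogn (osteoglycin) by 0.95. Timp3, an inhibitor of matrix breakdown, rose by 1.05 and Thbs2 (thrombospondin 2) by 1.02. The 16 fibroblast markers gave 4 falls and 1 rise, and 2 falls without sham 1 or sham 4. The 4 falls are Col3a1, Col1a1, Col1a2 and Lum, already counted above, and the other 11 markers did not pass. Dpep1, a membrane dipeptidase, was the rise: it went from 7.34, 7.63 and 8.21 to 8.85, 9.26 and 9.62, a change of 1.56 (SE 0.15, adjusted p = 0.000106). The whole fibroblast list averaged -0.14 to 0.37 in sham arrays and -0.62 to -0.11 in MCAO arrays, relative to the sham mean, and its part in the matrix results was not tested.

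Of 25 genes of TGF-beta signalling and integrins 2 fell and 4 rose, and 2 rose without MCAO 3 or without sham 2, 4, 5 or 6. Itga6, a laminin-binding integrin, went from 7.40, 7.61 and 7.76 to 6.52, 6.82 and 7.05 and fell by 0.77 (SE 0.10, adjusted p = 0.000748), beside Itgb6 above. Tgfbr3, the co-receptor betaglycan, rose by 0.66, and Smad7, which blocks the TGF-beta signal, by 0.69.

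Of 25 vascular signalling genes 6 fell and 2 rose, with 4 to 7 falls when any single array was left out. Beside Aplnr, its ligand gene Apln fell by 0.40 and lost its call without any 1 of 8 arrays (adjusted p up to 0.0785). Kdr, the main VEGF receptor of endothelium, went from 9.71, 9.83 and 10.04 to 8.77, 8.91 and 9.40 and fell by 0.88 (SE 0.10, adjusted p = 0.00051). Its co-receptors Nrp1 and Nrp2 fell by 0.64 and 0.73, with no overlap between the groups in any of the 3. Vegfa itself fell by 0.34, a call lost without any 1 of 8 arrays (adjusted p up to 0.0881). The Notch ligand Jag1 rose by 0.50 and the receptor Tie1 by 0.46. Of 16 endothelial markers 3 rose (Rgcc by 0.94, Tie1 by 0.46 and Pecam1 by 0.27) and 1 fell (Kdr), though Pecam1 lost its call without any 1 of 10 arrays (adjusted p up to 0.0933). Of 15 smooth muscle and pericyte markers 3 fell, 1 rose and 11 did not pass, with a list median of -0.07. Acta2 (smooth muscle actin) fell by 0.84, Smtn by 0.47, and Notch3, a receptor of mural cells, rose by 0.41.

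Hypoxia-response genes split evenly, 3 up and 3 down of 21, with 1 fall without MCAO 3, MCAO 4, or sham 1, 2, 3, 5 or 6 and 5 rises without MCAO 6. Egln3, an oxygen-sensing hydroxylase that is itself induced by low oxygen, went from 7.86, 8.37 and 9.11 to 5.93, 7.04 and 7.78 and fell by 1.46 (SE 0.27, adjusted p = 0.00571). Bnip3 (above) and Pfkfb3 rose. Pdk1, another kinase of pyruvate dehydrogenase, rose by 0.29 and lost its call without sham 2, 5 or 6 (adjusted p up to 0.0564).

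Of 25 acute phase and cytokine genes 4 rose and 1 fell, with 7 rises without MCAO 6. Serpina3n, a secreted protease inhibitor of the acute phase, averaged 9.07 ± 0.65 (SD, n = 6) in sham and 10.54 ± 0.78 (SD, n = 6) in MCAO hearts, a change of 1.47 (SE 0.36, adjusted p = 0.0243). The groups overlapped, and the call was lost without sham 2 (adjusted p = 0.0532). Tnfrsf1a, the main TNF receptor, rose by 0.84, and Osmr, the oncostatin M receptor, by 0.57, which it lost without sham 6 (adjusted p = 0.0543). Orm2 fell by 0.40, and Il6 changed by -0.06 (adjusted p = 0.54). Both read near the median sham level of the olfactory and vomeronasal receptors, 3.21: Orm2 between 3.06 and 3.77 and Il6 between 3.08 and 3.32. Of 27 chemokine and adhesion genes 2 rose and 1 fell. The rises were 0 without MCAO 2, MCAO 4 or sham 1, 2, 4 or 6 and 1 without MCAO 3, MCAO 5, MCAO 6, sham 3 or sham 5, and the falls 2 without MCAO 6 or sham 5. The fall was Cxcl12, a chemokine that retains leukocytes in tissue, at -0.57. Of 25 interferon-stimulated genes 1 rose and 1 fell. That rise was lost without any 1 of 9 arrays, all but MCAO 1, MCAO 5 and sham 3, and 2 fell without MCAO 3 or sham 5. The fall was Bst2 (tetherin) at -0.82.

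Of 16 genes of MHC class II and dendritic cells 3 fell and the other 13 did not pass, and 1 fell without MCAO 4 or without sham 2, 3, 5 or 6. H2-Eb1 went from 6.25, 6.50 and 7.18 to 4.89, 5.58 and 5.85 and fell by 1.12 (SE 0.19, adjusted p = 0.00404). H2-Ab1 fell by 1.11 and Cd74, the invariant chain, by 0.80, with overlapping groups, and both calls were lost without any 1 of 6 and of 8 arrays (adjusted p up to 0.076 and 0.0776). Of 22 macrophage markers 3 rose: the scavenger receptor Cd163 by 0.66, the monocyte marker Ly6c2 by 0.99 and Mertk, a receptor for dying cells, by 0.58. The other 19 did not pass, the list median was -0.11 and 8 of the 22 lay above 0. Without MCAO 5 and 6, 3 rose and 2 fell. Of 15 neutrophil markers Retnlg rose by 0.64, and 2 rose without MCAO 1, MCAO 4, MCAO 5 or sham 1. Among 12 B cell and 17 T and NK cell markers limma called none, and 3 and 4 had an unadjusted p under 0.05.

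Of 23 genes of endoplasmic reticulum stress 2 rose and 2 fell. The falls were 0 without sham 2 or sham 4, 1 without MCAO 2, MCAO 3 or sham 1, and 4 without MCAO 6. Herpud1, which helps degrade misfolded proteins, went from 10.37, 10.52 and 10.68 to 11.16, 11.31 and 11.65, a change of 0.84 (SE 0.09, adjusted p = 0.000173), and the sensor Atf6 rose by 0.71. The chaperone Calr (calreticulin) fell by 0.47, a call lost without sham 2 (adjusted p = 0.0501) or sham 4 (0.0573). Of 23 antioxidant genes 4 rose, 3 or 4 with any single array left out, among them Cat (catalase) by 0.49, Nfe2l2, the master regulator NRF2, by 0.48 and Gclm, a subunit of glutathione synthesis, by 0.87. Of 22 heat shock chaperones limma called none, and 5 had an unadjusted p under 0.05. Hspa8 and Hspd1, constitutive chaperones, were lowest in MCAO 6, where they read 7.32 and 4.25 there, against group medians of 12.26 and 9.64.

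Atrial markers set MCAO 1 apart. Relative to the sham mean the 10 markers averaged 2.46 in MCAO 1, between 0.10 and 1.00 in the other MCAO arrays and between -0.32 and 0.45 in sham arrays. Sln and Myl7, which encode atrial proteins of the calcium pump and of myosin, read 11.07 and 10.65 in MCAO 1, against group medians of 6.60 and 6.26. Over the groups their changes were 2.79 (adjusted p = 0.0571) and 2.27 (adjusted p = 0.121), and limma called none of the 10, while 4 had an unadjusted p under 0.05. The ventricular markers stayed between -0.26 and 0.13 in all 12 arrays. The part of atrial tissue in the results above was not tested.

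**Figure D4:**
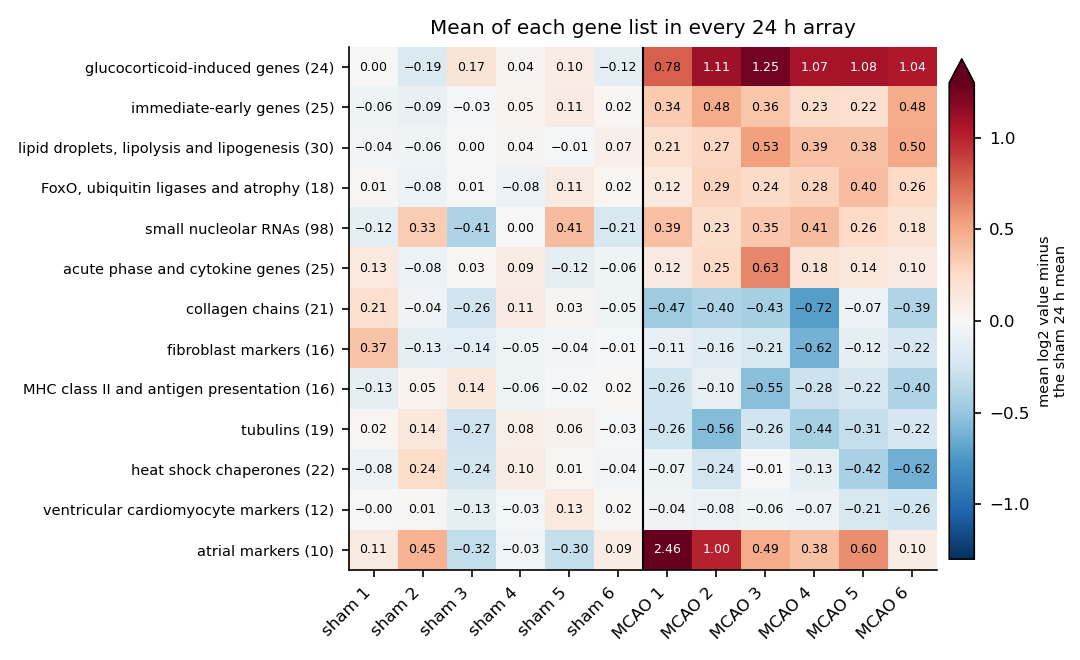
Mean log2 value of 13 gene lists in each of the 12 arrays at 24 h, minus the mean of the 6 sham arrays, printed in each cell and coloured from blue (lower) to red (higher). The glucocorticoid-induced genes are above 0.7 in all MCAO arrays, whereas atrial markers reach 2.46 in MCAO 1, beyond the end of the colour scale, and heat shock chaperones are lowest in MCAO 6.

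Small nucleolar RNAs guide the chemical modification of ribosomal RNA and are cut from introns of host genes. Of 98 measured, 18 rose and the other 80 did not pass, 18.4% against 4.77% of all genes, with a median log2 change of 0.29. The count was 12 to 20 with any single array left out, 20 without MCAO 5 and 6, and none with the receptor component. Snord1b went from 4.50, 5.73 and 6.79 to 7.15, 7.68 and 7.84, a change of 1.91 (SE 0.31, adjusted p = 0.00322). Snord11 went from 4.88, 5.62 and 5.90 to 6.59, 6.75 and 6.88, a change of 1.17 (SE 0.14, adjusted p = 0.000544). Both separated the groups, and for Snord1b the sham hearts varied more than the MCAO hearts. Snora81 rose by 1.43 and Snord42b by 1.35, and Snord12 rose by 1.44 and lost its call without any 1 of 10 arrays (adjusted p up to 0.0924). All 18 lie inside a host gene in RefSeq, and limma called none of the 12 different hosts that were measured, with host log2 changes from -0.23 to 0.38. The sham arrays themselves differed, with list means between -0.41 and 0.41, and the MCAO means of 0.18 to 0.41 lie inside that range.

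Of 544 microRNA genes 38 rose and 22 fell. These 60 are a share only slightly above the 9.14% called over all genes. The risen share lay above the 4.77% of all genes, and the fallen share slightly below their 4.36%. The rises were 25 without sham 4, and the falls were 13, 10 and 14 without sham 2, 4 or 5. With the receptor component 2 rose and none fell. The median sham level of this list was 3.43, against 4.16 over all genes and 3.21 for the olfactory and vomeronasal receptors. MicroRNAs pair through a seed, bases 2 to 8, with the messages they repress. RefSeq (GRCm38.p6) held 53 of the 60 called genes with 91 mature sequences and 88 different seeds, and 3 seeds were shared by 2 genes. The sequences are shown to compare seeds among called genes, and the seed is in capitals. Only called genes were compared, so that both genes of a pair changed follows from that choice. The mature miR-27a-3p lies at chr8:84208727-84208747 and miR-23a-3p at chr8:84208563-84208583, side by side on the plus strand. The deposited value is per gene, so the arms cannot be told apart.
miR-27a-3p: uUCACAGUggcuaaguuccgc
miR-23a-3p: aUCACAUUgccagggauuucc
miR-107-3p: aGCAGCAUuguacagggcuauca
miR-103-3p: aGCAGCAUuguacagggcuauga
miR-15a-5p: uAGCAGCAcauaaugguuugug
miR-16-5p: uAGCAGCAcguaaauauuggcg
miR-208a-3p: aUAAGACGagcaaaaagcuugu
miR-3473d: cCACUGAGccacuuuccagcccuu
miR-3058-3p: uUCCUGUCagccgugggugcc
The miR-27a and miR-23a seeds differ, while miR-107 with miR-103 and miR-15a with miR-16 share theirs.

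Mir27a rose most, from 4.29, 4.50 and 4.56 to 5.33, 5.69 and 6.15, a change of 1.26 (SE 0.12, adjusted p = 8.6e-05). Mir23a rose by 1.03 (SE 0.19, adjusted p = 0.00592), and both separated the groups, while Mir24-2, the third gene of that cluster, showed 0.16 (adjusted p = 0.308). Mir107 rose by 0.88, and Mir103-2, which shares its seed, by 0.45, a call lost without any 1 of 9 arrays (adjusted p up to 0.0962). Mir505 rose by 0.95 and Mir490 by 0.91, whose host gene, the muscarinic receptor gene Chrm2, showed -0.13 (adjusted p = 0.614). Mir15a went from 6.14, 6.37 and 6.56 to 5.03, 5.52 and 6.08 and fell by 0.76 (SE 0.18, adjusted p = 0.0205). Its neighbour Mir16-1, with the same seed, fell by 0.32 and lost its call without any 1 of 6 arrays (adjusted p up to 0.0742). Mir208a, a heart muscle microRNA inside Myh6, fell by 0.87, while Myh6 did not pass.

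Mir3473d fell by 1.43 and Mir3058 by 1.40, with no overlap between the groups. Mir3058 lies inside Nudt4, which fell by 0.35 and lost its call without any 1 of 9 arrays (adjusted p up to 0.0756), and Mir1956 (-1.01, lost without any 1 of 5 arrays, adjusted p up to 0.0671) inside Eif4e, the gene of the cap-binding translation factor, which fell by 0.83. Mir483 fell by 1.06 and Mir5099 by 1.05. Mir483 lost its call without any 1 of 8 arrays (adjusted p up to 0.0775), and Mir5099 without sham 4 (adjusted p = 0.0552).

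In a fit of all 24 arrays 565 genes (2.35%) were called at 72 h, against 5237 at 24 h in the same fit. That fit, which also gave the difference between times, uses a shared spread per gene for all groups. The median SD over genes was 0.218 in MCAO and 0.130 in sham hearts at 24 h. At 72 h it was 0.105 in MCAO and 0.114 in sham hearts, so the counts at 24 h and 72 h cannot be compared directly. Of the 2194 genes, which were chosen on their 24 h values, 1714 (78.1%) had the same sign at 72 h, against 58.3% of all genes, and 298 were called in the same direction. The 24 h effect itself differed from the 72 h effect for 430 genes (1.79%), and 365 of the 2194 were among them. In all 365 the difference had the sign of the 24 h change, which their selection on 24 h values favours. The count of 430 was 1079 without MCAO 5 and 6 and between 197 and 1012 without any single array. It was lowest without MCAO 72 h 3 and highest without MCAO 24 h 1. It was also outside 1.5 times without MCAO 24 h 6 (858), sham 24 h 4 (212) and 5 (268), MCAO 72 h 2 (233), 4 (250) and 5 (260), and sham 72 h 1 (267), 2 (264), 4 (209) and 6 (203).

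The median of the glucocorticoid-induced list was 0.73 at 72 h, when 14 of 24 were called. Fkbp5 showed a log2 change of 2.25 at 72 h (difference between times 1.02, adjusted p = 0.231), Cdkn1a of 1.73, Fam107a of 1.52 and Ddit4 of 1.61. Among fallen genes Itgb6 stayed at -1.95, Aplnr at -1.54 and Lmod3 at -1.61.

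The effect differed between the times for 3 of 25 immediate-early genes (Nr4a3, Atf3 and Ier2), 1 of 24 insulin and growth signalling genes (Irs2) and 3 of 20 intercalated disc genes (Gja1, Gja3 and Cdh2). Nr4a3 showed 1.20 at 24 h and -0.26 at 72 h (difference 1.46, SE 0.32, adjusted p = 0.0221). Irs2 went from 1.60 to 0.54 (difference 1.06, adjusted p = 0.0245), Gja1 from -1.12 to -0.40 (difference -0.72, adjusted p = 0.0218), and Hk1 and Fbxo30 also differed. For Mir27a the change was 1.26 at 24 h and 0.23 at 72 h (difference 1.03, adjusted p = 0.00711), and Mir23a, Mir490, Mir3058 and Mir3473d differed as well. Rap1gap2, Dgat1, Thrsp, Orm2, Snora81, Syt12, a vesicle protein gene, and Mpped2, a phosphodiesterase gene, were further genes called in this test whichever of the 24 arrays was left out.

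Other differences were less stable. Atf3 (13 arrays), Ier2 (16), Ctsl (13), Adh1 (17), Tuba4a (16), Lce1j (20), Snord11 (15), Otx1 (12), Dbp (7) and Hsd11b1 (14) lost this call without any 1 of the number of arrays in brackets, with adjusted p up to 0.0789. Plin3 lost it without sham 24 h 4 or sham 72 h 4 (adjusted p up to 0.0506). Nr4a1, at 2.38 and 0.94, did not pass (adjusted p = 0.0787).

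Some of the widest gaps came from the 72 h hearts. Myh7 showed 0.25 at 24 h and 3.07 at 72 h (difference -2.82, SE 0.49, adjusted p = 0.00713), and Hsd11b1, which regenerates active glucocorticoid, 0.01 and 1.18. Higd1a, a mitochondrial protein gene, showed 0.32 and -0.93, the aminotransferase gene Gpt 0.07 and -1.01, and Dbp 0.29 and -1.09.

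**Figure D5:**
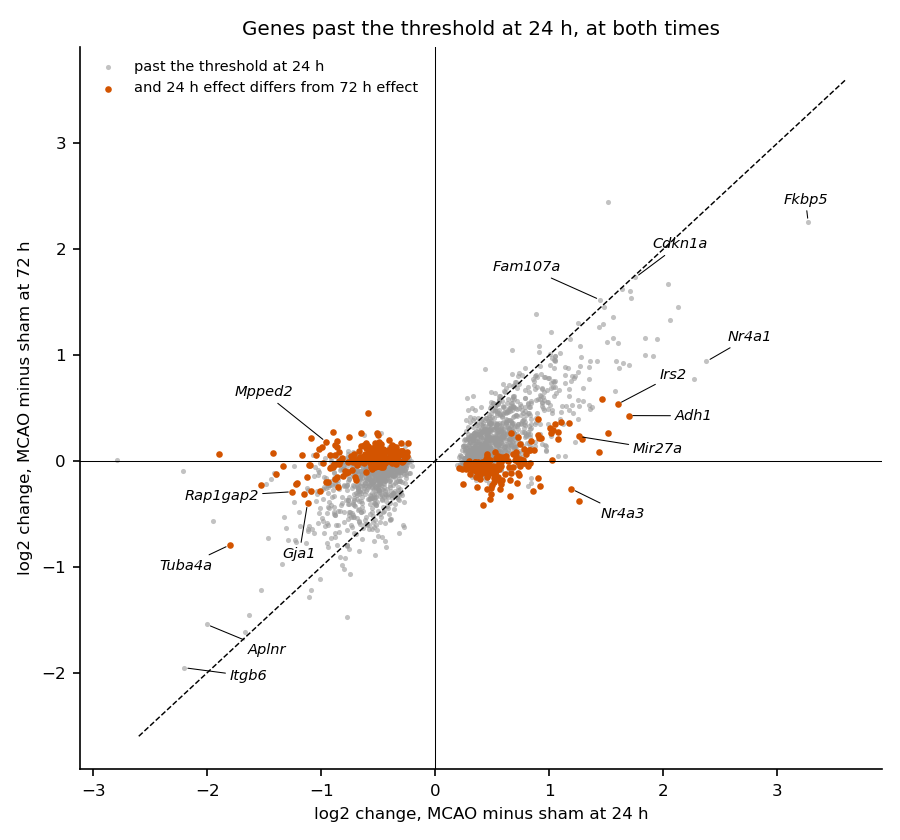
Log2 change after MCAO at 24 h (horizontal axis) against 72 h (vertical axis) for the 2194 genes called at 24 h, with orange points for the 365 whose 24 h effect differed from the 72 h effect. The dashed line marks equal effects; Cdkn1a and Itgb6 lie near it, while Nr4a3, Irs2, Mir27a and Gja1 lie closer to 0 at 72 h.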

How the data were processed

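Total RNA extracted from hearts with Trizol was labelled as biotinylated cRNA and hybridised to Affymetrix mouse gene arrays, per the labels' protocols. The deposited log2 expression values are the authors' normalized values; per the submitters' processing notes HOMER was used, with no version. How probes were summarized, and on which genome build, is not given in the sources used here. All columns of the deposited log2 table share a near-identical distribution, with values from 2.78 to 13.5, so no further scaling was applied. Of 24973 identifiers 24015 had 1 gene symbol in GEO's platform annotation and 958 had none; 4 symbols had several identifiers, of which the brightest on average was taken, leaving 24011 genes.

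MCAO and sham arrays at 24 h were compared with limma 3.58.1 in R 4.3.3 on these 12 arrays without covariates, with Benjamini-Hochberg adjustment over all 24011 genes; the 72 h effect and the difference between times came from 1 fit of all 24 arrays. On simulated data with 200 changed genes, the 24 h test recovered 59% of those made with a log2 size of 0.5 and 90% with a size of 1, and 4.49% of its calls were false. The test of the difference between times recovered 42% and 90%, with 8.33% false calls. These shares describe simulated data, and whether they hold for the measured arrays was not tested. The genes named are the 15 highest and 15 lowest called changes (without predicted genes, receptor and antigen receptor segments and small RNAs), up to 6 called members of each list by smallest p with others given by value, up to 5 called microRNAs and small nucleolar RNAs in each direction, and the 8 highest and 8 lowest differences between times; paired, clustered or host genes of these and further genes were named after their values were seen. The gene lists and members were chosen with earlier results of these data known. No deposited value gives a depth; the number of arrays limits the precision.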

Additional observations from a re-analysis of the deposited data

Results flagged for a closer look

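Among 414 groups of 6 arrays tested for the genes named above, 30 held an array far from the other 5, where chance marks about 1 in 20 groups. MCAO 6 accounted for 9 of them and sham 5 for 8. In MCAO 6, Abhd5 was lowest at a log2 value of 6.69, Cxcl12 at 7.45, Hspa8 at 7.32, Hspd1 at 4.25, Nr3c2 at 4.82, Snord12 at 4.65 and Zbtb16 at 8.12, while Cry1 was highest at 5.61 and Dusp1 at 10.2. In sham 5, Acot2 was lowest at 11.69, Atg13 at 8.38, Car4 at 4.47, Ly6c2 at 5.80 and Mir23a at 3.50, while Lce1j was highest at 8.50, Mir1956 at 8.90 and Rap1gap2 at 8.17. In MCAO 1, Arrdc2 was lowest at 6.55, Castor1 at 5.14 and Pnpla2 at 11.37. In MCAO 5, Fbxl22 was lowest at 5.11 and Myh6 at 11.93, and Trim63 was highest at 9.96. Vegfa was lowest in MCAO 3 at 9.37, and Nrp1 in MCAO 4 at 8.38. Among sham arrays, Nrp1 was lowest in sham 1 at 9.30 and Fbxl22 in sham 3 at 5.87, Sln was highest in sham 2 at 6.89, Cat in sham 3 at 12.29, and Nr4a3 in sham 4 at 4.50.

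For 33 named genes the log2 effect at 24 h differed from that at 72 h in limma's test of the difference. The 24 h effect was the more positive by 1.46 for Nr4a3, 1.38 for Dbp, 1.35 for Snora81, 1.27 for Adh1, 1.25 for Higd1a, 1.25 for Syt12, 1.07 for Gpt, 1.06 for Irs2, 1.06 for Mir490, 1.03 for Mir27a and 1.02 for Mir23a. It was also the more positive by 0.84 for Thrsp, 0.81 for Snord11, 0.80 for Plin3, 0.74 for Atf3, 0.72 for Dgat1, 0.64 for Ier2 and 0.63 for Ctsl. The difference was -2.82 for Myh7, -1.96 for Lce1j, -1.50 for Mir3473d, -1.27 for Mir3058, -1.17 for Hsd11b1, -1.14 for Mpped2, -1.07 for Otx1, -1.01 for Tuba4a and -0.96 for Rap1gap2. It was -0.74 for Gja3, -0.72 for Gja1, -0.67 for Hk1, -0.57 for Fbxo30, -0.42 for Orm2 and -0.41 for Cdh2.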

How the results depend on the processing

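Over all genes tested, 2194 were called at 24 h. With all 24 arrays in 1 fit that count was 5237 (2654 risen, 2583 fallen), and it was 79 (52 and 27) with the receptor component as a covariate, where the log2 change of Mir483 turned to 0.013. Centred on ribosomal protein genes, 424 genes fell, and without MCAO 5 and 6 there were 1720. With the replicate number as a block the count was 1357 (710 risen, 647 fallen). Deviations of same-numbered arrays from their group means correlated at -0.0533 to 0.00678. These values show no pairing by number but cannot exclude it. No MCAO array correlated best with the sham array of its own number. With any single array left out the count lay between 1250 and 2913, with 686 to 1446 risen and 564 to 1467 fallen genes. The effect differed between times for 430 genes, and this count over all genes tested was 218 without dim genes, 167 with the replicate block, 1079 without MCAO 5 and 6, and 197 to 1012 with any single array left out. The counts with array weights, median centring, quantile normalization or a trended and robust prior stayed within 1.5 times. The cause was not tested for any of these.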
